A study of Mus musculus with 9 samples.

Results

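Cells answer interferons through a short chain of proteins, and 9 genes encode its core. They are the receptor chains Ifnar1 and Ifnar2 for type I interferons and Ifngr1 and Ifngr2 for interferon gamma, the Janus kinases Jak1, Jak2 and Tyk2 that sit on these chains, and Socs1 and Socs3, 2 suppressors of cytokine signaling. The genes were taken by symbol from a table of RNA-seq counts that lists 36410 genes, and all 9 were found and were among the 13508 genes with enough counts to test. The counts come from 3 immortalized cell lines made from mouse embryos and described as striatal neuronal cells, with 3 libraries each and no treatment. Control cells (STHdhQ7/Q7) carry a knock-in Htt exon 1 with 7 glutamine repeats on both alleles, HD-het cells (STHdhQ7/Q111) carry 7 repeats on 1 allele and 111 on the other, and HD-homo cells (STHdhQ111/Q111) carry 111 on both. The labels give the strain C57/BL6 for all of them. Each genotype is 1 cell line, so that the genotype and the history of the line cannot be told apart, and nothing in the labels says whether the 3 libraries of a line came from separate cultures, so that p values measure the spread between these libraries only.

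Type I interferons bind a receptor made of Ifnar1, the low-affinity chain, which carries Tyk2, and Ifnar2, the high-affinity chain, which carries Jak1. Interferon gamma binds Ifngr1, which carries Jak1, and signals with Ifngr2, which carries Jak2. The kinases phosphorylate STAT proteins, which enter the nucleus and bind the interferon-stimulated response element (ISRE, with Irf9) or the gamma-activated site (GAS) of their targets. Socs1 and Socs3 are themselves STAT targets in many cells. Socs1 blocks Jak1, Jak2 and Tyk2 at interferon receptors, and Socs3 acts mainly at receptors of the interleukin-6 family that contain gp130.

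The start regions of Socs1, Socs3 and Ifngr2 are shown because these genes behaved most differently from one another across the lines. The 250 bases before each RefSeq start (GRCm38.p6) were searched on both strands for the core GAAANNGAAA of the ISRE and for the GAS TTCNNNGAA, which reads the same on both strands, and matches are in capitals. The motifs were chosen after these sequences had been looked at. In Socs3 the bases nearest the start overlap an exon of a non-coding transcript, so only the outer 150 bases are printed, and neither motif occurs in the remaining bases. The Socs3 window lies inside the gene span given below for Socs3, which comes from GENCODE and begins farther upstream than the RefSeq start.
Socs1, chr16:10785537-10785786, minus strand: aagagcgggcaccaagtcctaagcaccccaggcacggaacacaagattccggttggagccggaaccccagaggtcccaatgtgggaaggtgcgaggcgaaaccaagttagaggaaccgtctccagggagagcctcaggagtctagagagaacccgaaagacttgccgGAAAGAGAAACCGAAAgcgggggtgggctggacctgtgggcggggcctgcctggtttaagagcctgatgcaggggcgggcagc
Socs3, chr11:117969467-117969616, minus strand: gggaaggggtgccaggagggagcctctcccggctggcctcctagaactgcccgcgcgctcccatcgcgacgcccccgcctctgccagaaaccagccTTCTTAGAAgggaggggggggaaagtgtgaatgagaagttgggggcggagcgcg
Ifngr2, chr16:91546809-91547058, plus strand: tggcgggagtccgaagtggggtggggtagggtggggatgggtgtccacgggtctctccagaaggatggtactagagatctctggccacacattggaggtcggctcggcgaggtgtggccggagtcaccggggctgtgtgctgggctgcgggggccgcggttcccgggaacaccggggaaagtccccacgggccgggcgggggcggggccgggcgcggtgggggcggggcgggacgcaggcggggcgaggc

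The window of Socs1 held 2 overlapping ISRE cores, GAAAGAGAAA at 83 to 74 and GAAACCGAAA at 77 to 68 bases before the start. The window of Socs3 held the GAS TTCTTAGAA at 154 to 146 bases before the start, and that of Ifnar2 held the GAS TTCCTGGAA at 214 to 206 bases. The other 6 genes, Ifngr2 among them, held no match to these letters. Of 32851 mouse start regions of the same length, 2.98% held an ISRE core and 7.02% held a GAS, so that such matches are not rare.

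The libraries held 29507665 to 41197931 counts. Levels are given as normalized CPM, the counts per megaread after scaling the libraries by edgeR's TMM method with factors of 0.984 to 1.03. A floor of 3 counts corresponded to 0.0710 to 0.101 CPM, and each of the 9 genes lay far above it in every library, with a lowest count of 131. The lines were compared in pairs by the two-sided quasi-likelihood test of edgeR, with Benjamini-Hochberg adjustment over all 13508 tested genes, and a gene was called changed where the adjusted p was under 0.05. Adjusted p below always means this test.

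The 3 lines differed widely, so the counts are set beside the share of all tested genes. In HD-homo versus control cells, 4 of the 9 genes rose (Ifnar2, Ifngr2, Jak1 and Tyk2), where 29.6% of all tested genes were higher, and 2 fell (Ifngr1 and Socs3), where 28.9% were lower. In HD-het versus control cells, 4 rose (Ifnar1, Ifnar2, Jak1 and Tyk2) against 33.8% of all genes, and 3 fell (Ifngr1, Socs1 and Socs3) against 31.4%. In HD-homo versus HD-het cells, 3 were higher in HD-homo cells (Ifngr2, Jak1 and Socs1) against 36.0% of all genes, and 2 were lower (Ifnar1 and Tyk2) against 35.6%. The libraries of the lines compared did not overlap for 6, 8 and 5 of the 9 genes in these comparisons, where 65.3%, 74.0% and 72.8% of all tested genes did not overlap. These shares lie near those of all genes, so the number of changed genes does not set the 9 apart. The comparisons with control cells share the 3 control libraries.

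**Figure D1:**
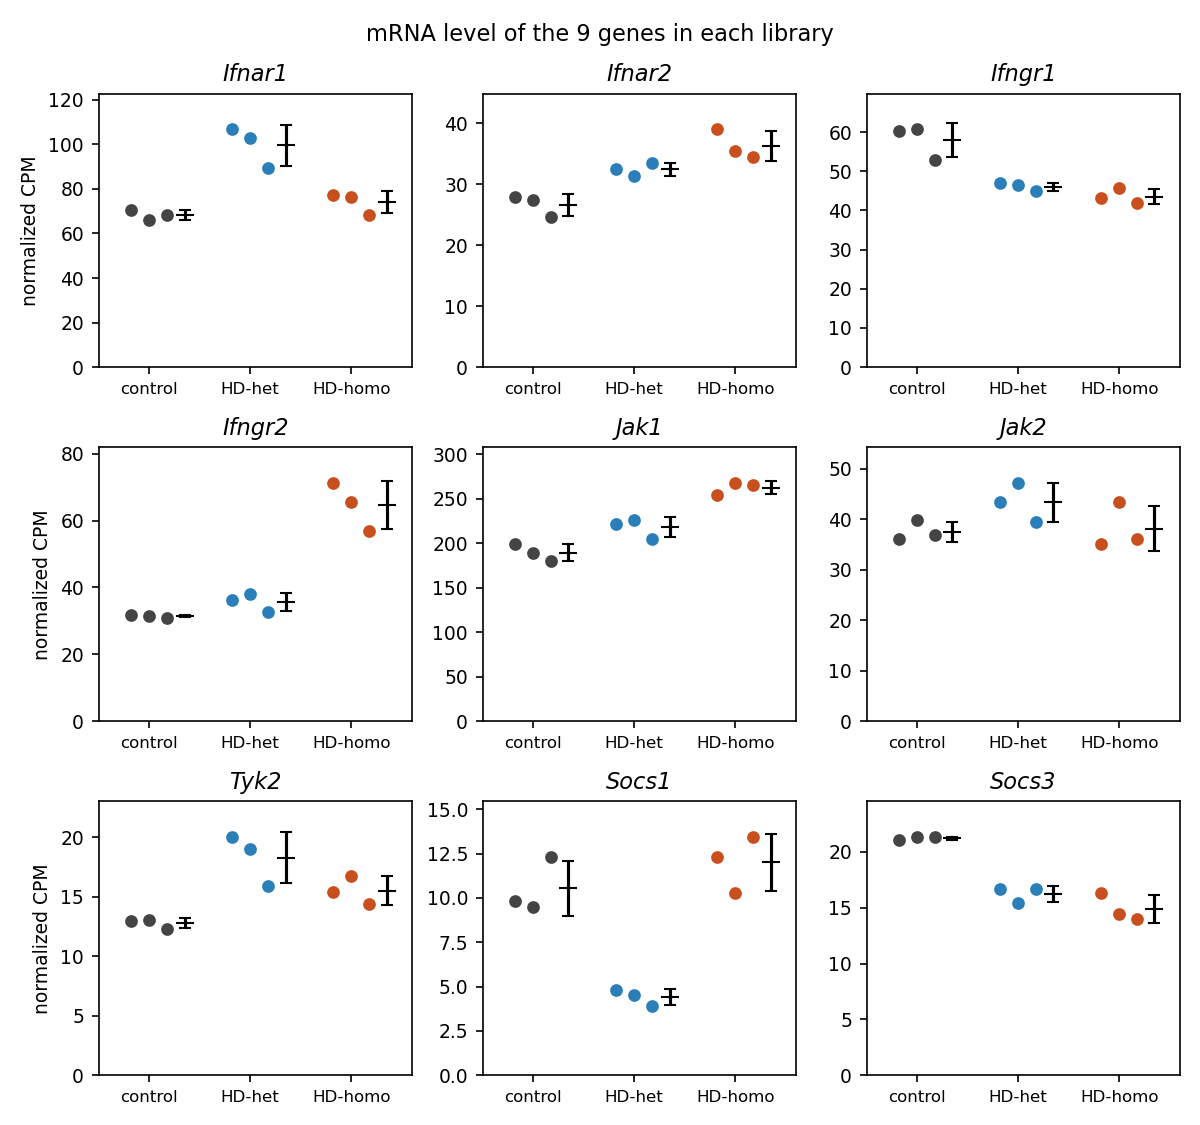
Normalized CPM (vertical axis, from 0) of the 9 genes in each library (points) of the control, HD-het and HD-homo lines, with the mean and SD of 3 libraries beside them. Ifnar1 and Tyk2 had their highest mean in HD-het cells, Socs1 was lowest there, Ifngr2 and Jak1 were highest in HD-homo cells, and Socs3 and Ifngr1 were highest in control cells.

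Both chains of the type I interferon receptor rose in HD-het cells, and Ifnar2 also rose in HD-homo cells. Ifnar1 (ENSMUSG00000022967, chr16:91485238-91507441 on GRCm38, plus strand) had 66.1, 68.2 and 70.5 CPM in the control libraries, 89.2, 103 and 107 CPM in the HD-het libraries and 68.4, 76.5 and 77.3 CPM in the HD-homo libraries. The HD-het libraries stood above all others, while the control and HD-homo libraries overlapped. HD-het cells had 1.46 times the Ifnar1 level of control cells (log2 fold change 0.55, 95% confidence interval 0.38 to 0.71, adjusted p = 7.89e-05) and 1.34 times that of HD-homo cells (adjusted p = 3.71e-04). HD-homo and control cells were not told apart, at a log2 fold change of 0.12 and an interval of -0.05 to 0.29 (adjusted p = 0.208).

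Ifnar2 (ENSMUSG00000022971, chr16:91372783-91405589, plus strand) was lowest in control cells, with 24.6, 27.4 and 27.9 CPM. It had 31.3, 32.5 and 33.4 CPM in HD-het cells and 34.4, 35.4 and 39.0 CPM in HD-homo cells. The 3 lines did not overlap, and the order of their levels followed the number of alleles with 111 repeats. The rise over control cells was 1.22-fold in HD-het cells (log2 fold change 0.28, interval 0.12 to 0.45, adjusted p = 0.00613) and 1.36-fold in HD-homo cells (0.45, interval 0.28 to 0.61, adjusted p = 3.77e-04). The step from HD-het to HD-homo cells did not pass the test (log2 fold change 0.16, adjusted p = 0.0703). It passed in only 3 of 18 alternative analyses, with an adjusted p of up to 0.235 over all 18. These were library totals in place of TMM (0.0349), thinning to the smallest library (0.0324) and the fit without HD-homo replicate 3 (0.0461). Of the 50-base words of Ifnar2 transcripts, 7.89% also occur in Gm21970, a gene that shares 315 exon bases with it on the same strand. Gm21970 is not among the genes listed in these counts, so no reads are counted under that symbol.

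The chains of the interferon gamma receptor moved in opposite directions. Ifngr1 (ENSMUSG00000020009, chr10:19591949-19610229, plus strand), the ligand-binding chain, had 53.0, 60.3 and 60.7 CPM in control cells, 44.9, 46.4 and 46.9 CPM in HD-het cells and 41.8, 43.2 and 45.6 CPM in HD-homo cells. Every library of the HD lines lay below every control library, and the HD lines overlapped each other. Relative to control cells the log2 fold change was -0.33 in HD-het cells (interval -0.48 to -0.18, adjusted p = 0.00119) and -0.41 in HD-homo cells (interval -0.56 to -0.26, adjusted p = 3.12e-04). The difference between the HD lines was -0.08, with an interval of -0.23 to 0.07 (adjusted p = 0.300).

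Ifngr2 (ENSMUSG00000022965, chr16:91547072-91565623, plus strand), the signaling chain that brings Jak2, had the strongest rise over control cells among the 9 genes. Its control libraries had 31.0, 31.5 and 31.9 CPM, its HD-het libraries 32.7, 36.3 and 38.1 CPM and its HD-homo libraries 56.9, 65.7 and 71.2 CPM. The HD-homo libraries were thus far above the rest, and the HD-het libraries lay just above the control libraries without overlap. HD-homo cells had 2.05 times the Ifngr2 level of control cells (log2 fold change 1.04, interval 0.85 to 1.23, adjusted p = 1.46e-06) and 1.81 times that of HD-het cells (0.86, interval 0.67 to 1.05, adjusted p = 4.27e-06). In HD-het versus control cells the log2 fold change was 0.18 and missed the threshold (interval -0.01 to 0.37, adjusted p = 0.0899). It passed in only 4 of 18 alternative analyses, with an adjusted p of up to 0.26 over all 18. Among the 4, the adjusted p was 0.0387 when only these lines were fitted, 0.0400 without HD-het replicate 3 and 0.0372 without HD-homo replicate 3.

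Ifnar2, Ifnar1 and Ifngr2 lie next to each other on chromosome 16, with Il10rb, the shared chain of the interleukin-10 and interferon lambda receptors, in the same cluster. Within 1 Mb of Ifngr2, the median log2 fold change of 18 other tested genes was 0.11 in HD-homo versus control cells and 0.06 in HD-het versus control cells. In HD-homo versus control cells 7 of these neighbours were called higher and 3 lower, and the log2 fold change of Ifngr2 itself was 1.04. Il10rb did not pass the test in any comparison. In HD-het versus control cells, medians of whole chromosomes also differed. The median was -0.31 on chromosome 10, which holds Ifngr1, and -0.01 within 1 Mb of Ifngr1. For Tyk2 on chromosome 9 these medians were 0.20 and 0.16, and for Jak2 on chromosome 19 they were -0.32 and 0.01. On chromosomes 4, 11 and 16 the chromosome medians lay between -0.08 and 0.06. Within 1 Mb of Jak1 on chromosome 4, however, the median of 6 tested genes was 0.67. In HD-homo versus control cells the median of these 6 genes was -0.90, while Jak1 itself rose. Within 1 Mb of Socs1 and Socs3 the medians in HD-het versus control cells were -0.01 and 0.05. The part of such shifts in the changes of the 9 genes was not tested.

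**Figure D2:**
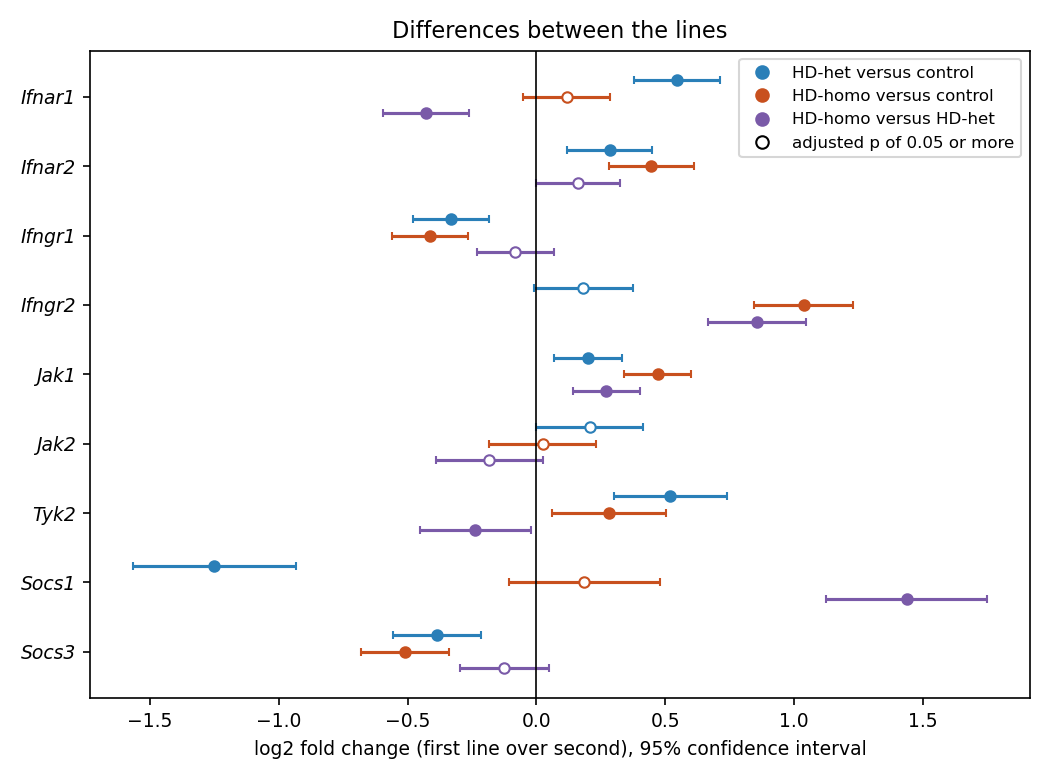
Log2 fold change (horizontal axis) of the 9 genes in 3 comparisons, with 95% confidence intervals from edgeR's quasi-likelihood fit, where filled points have an adjusted p under 0.05. Ifngr2 in HD-homo cells (1.04) and Socs1 in HD-het cells (-1.25) stand farthest from 0 among the comparisons with control cells.

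The opposite moves of the receptor chains changed their balance within a library, a measure that does not depend on scaling between libraries. The log2 ratio of Ifngr1 to Ifngr2 counts was 0.77, 0.92 and 0.94 in control libraries, 0.29, 0.37 and 0.46 in HD-het libraries and -0.72, -0.53 and -0.45 in HD-homo libraries. The ligand-binding chain thus had 1.71 to 1.92 times the counts of the signaling chain in control cells, but 0.606 to 0.734 times in HD-homo cells. The mean log2 ratio fell by 1.44 from control to HD-homo cells and by 0.51 from control to HD-het cells, with no overlap in either case. The exact two-sided permutation test gave p = 0.1 in each, which is the smallest p that 3 libraries against 3 allow, so that no ratio could pass a threshold of 0.05.

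The log2 ratio of Ifnar1 to Ifnar2 counts had its lowest values in HD-homo cells (0.99, 0.99 and 1.11), against 1.27, 1.34 and 1.47 in control cells and 1.41, 1.71 and 1.72 in HD-het cells. HD-homo cells overlapped neither of the other lines (exact permutation p = 0.1 in each), while HD-het and control cells overlapped (exact permutation p = 0.2). In these ratios the counts are not divided by length, so they compare lines and not the amounts of the chains.

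Among the kinases, Jak1 rose in both HD lines and in steps. Jak1 (ENSMUSG00000028530, chr4:101152367-101265282, minus strand), which serves both interferon receptors and the gp130 receptors, had 180.4, 189 and 199 CPM in control cells, 205, 222 and 227 CPM in HD-het cells and 254.5, 266 and 268 CPM in HD-homo cells. No library of any line overlapped with another line. The log2 fold change was 0.20 in HD-het versus control cells (interval 0.07 to 0.33, adjusted p = 0.0116), 0.47 in HD-homo versus control cells (interval 0.34 to 0.60, adjusted p = 4.28e-05) and 0.27 in HD-homo versus HD-het cells (adjusted p = 0.00161). The rise in HD-het cells missed the threshold without control replicate 3 (adjusted p = 0.0523).

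Jak2 (ENSMUSG00000024789, chr19:29251828-29313080, plus strand), the kinase of Ifngr2, passed the test in no comparison. It had 36.0, 36.8 and 39.8 CPM in control cells, 39.5, 43.4 and 47.1 CPM in HD-het cells and 35.1, 36.0 and 43.3 CPM in HD-homo cells, and every pair of lines overlapped. In HD-homo versus control cells the log2 fold change was 0.02, with an interval of -0.18 to 0.23 (adjusted p = 0.843). It was 0.21 in HD-het versus control cells (adjusted p = 0.0742) and -0.18 in HD-homo versus HD-het cells (adjusted p = 0.102). HD-homo replicate 2 was the highest of its line, and without it the adjusted p of these was 0.0303 and 0.0106. Without HD-het replicate 3 it was 0.0342 and 0.0443. These comparisons passed in only 4 and 3 of 18 alternative analyses, with an adjusted p of up to 0.248 and 0.315.

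Tyk2 (ENSMUSG00000032175, chr9:21104068-21131243, minus strand), the kinase of Ifnar1, had its highest mean in HD-het cells, as Ifnar1 did. Its libraries had 12.3, 12.9 and 13.1 CPM in control cells, 15.9, 19.0 and 19.99 CPM in HD-het cells and 14.3, 15.4 and 16.7 CPM in HD-homo cells. The control libraries lay below all others, and the HD lines overlapped. HD-het cells had 1.43 times the Tyk2 level of control cells (log2 fold change 0.52, interval 0.30 to 0.74, adjusted p = 7.71e-04). The other calls were close to the threshold. The log2 fold change of 0.28 in HD-homo versus control cells (adjusted p = 0.0310) was no longer called without control replicate 1, 2 or 3 or without HD-homo replicate 1 or 2, with an adjusted p of up to 0.0982. The fall of 0.24 from HD-het to HD-homo cells (adjusted p = 0.0467) was lost in 12 of 18 alternative analyses, with an adjusted p of up to 0.186, reached without HD-het replicate 1. Tyk2 overlaps the antisense gene 1700084C06Rik by 554 exon bases, and that gene is not among the genes listed in these counts. The library kit keeps the strand, but whether the counting used it was not tested.

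Within libraries, the log2 ratio of Jak1 to Jak2 counts was 2.25, 2.29 and 2.47 in control cells, 2.27, 2.35 and 2.38 in HD-het cells and 2.63, 2.86 and 2.88 in HD-homo cells. HD-homo cells lay above the other lines without overlap (exact permutation p = 0.1, the smallest possible). HD-het and control cells had nearly the same mean, 2.33 and 2.34 (exact permutation p = 1).

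The suppressors behaved differently from each other, and Socs1 gave the strongest difference of the 9 genes. Socs1 (ENSMUSG00000038037, chr16:10782240-10785536, minus strand), the gene whose start region holds the ISRE cores shown above, had 9.49, 9.83 and 12.3 CPM in control cells, 3.92, 4.54 and 4.79 CPM in HD-het cells and 10.3, 12.3 and 13.4 CPM in HD-homo cells. The HD-het libraries, with 131 to 170 counts, lay below all others, and the control and HD-homo libraries overlapped. Control cells had 2.39 times the Socs1 level of HD-het cells (log2 fold change of HD-het over control cells -1.25, interval -1.57 to -0.94, adjusted p = 1.75e-05) and HD-homo cells had 2.71 times that level (log2 fold change of HD-homo over HD-het cells 1.44, interval 1.12 to 1.75, adjusted p = 3.69e-06). HD-homo and control cells were not told apart, at 0.19 on the log2 scale with an interval of -0.11 to 0.48 (adjusted p = 0.255).

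Socs3 (ENSMUSG00000053113, chr11:117966079-117970047, minus strand) fell in both HD lines. Its control libraries had 21.1, 21.3 and 21.3 CPM, its HD-het libraries 15.4, 16.6 and 16.7 CPM and its HD-homo libraries 14.0, 14.5 and 16.3 CPM. Control cells lay above both HD lines without overlap, and the HD lines overlapped. Relative to control cells it changed by -0.39 on the log2 scale in HD-het cells (interval -0.56 to -0.21, adjusted p = 0.00110) and -0.51 in HD-homo cells (interval -0.68 to -0.34, adjusted p = 1.86e-04). Between the HD lines it was -0.12, with an interval of -0.30 to 0.05 (adjusted p = 0.175).

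The log2 ratio of Socs1 to Socs3 counts was -1.17, -1.10 and -0.79 in control libraries, -2.08, -1.79 and -1.76 in HD-het libraries and -0.49, -0.41 and -0.06 in HD-homo libraries. The 3 lines did not overlap, and HD-het and HD-homo cells lay on opposite sides of control cells (exact permutation p = 0.1 for each pair, the smallest possible).

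**Figure D3:**
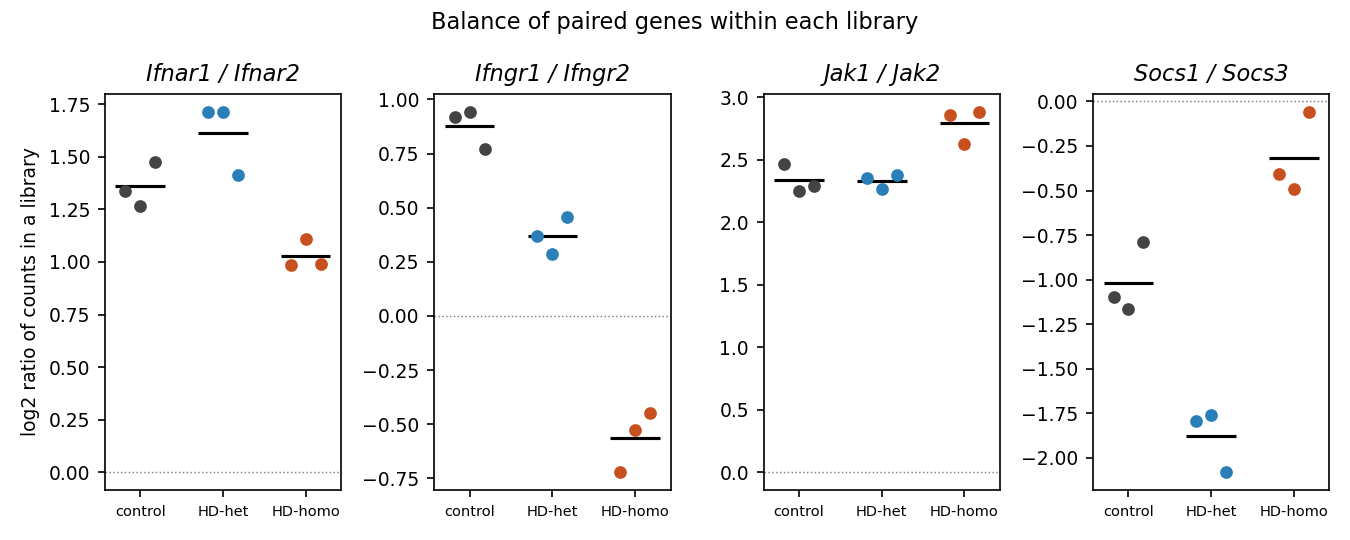
Log2 ratio of the counts of 2 genes within each library (points; vertical axis, on its own scale in each panel) with the mean of each line (bars), where the dotted line marks equal counts. The ratio of Ifngr1 to Ifngr2 passes from above 0 in control and HD-het cells to below 0 in HD-homo cells, and that of Socs1 to Socs3 is lowest in HD-het cells.

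Levels of different genes were compared as CPM per kb of exon. Jak1 was the most abundant of the 9 in every line, with 26.2 CPM per kb in control, 30.2 in HD-het and 36.4 in HD-homo cells. In control cells it was followed by Ifngr1 (20.4) and Ifnar1 (11.5), then by Ifngr2, Ifnar2, Jak2 and Socs3, between 8.35 and 7.35, each of which overlapped with the next, and then by Socs1 (3.62) and Tyk2 (1.86). In HD-het cells Ifnar1 (16.8) and Ifngr1 (16.2) followed Jak1 and overlapped, and Socs1 came last with 1.52, below Tyk2 with 2.66. In HD-homo cells Ifngr2 (17.2) had moved up beside Ifngr1 (15.3), and their libraries overlapped, as did those of Ifnar1 (12.5) and Ifnar2 (10.9), with Tyk2 again last (2.26). With the length of the longest transcript in place of all exons, Ifngr2 lay below Ifngr1 and Ifnar1 in HD-homo cells. Among the kinases, Tyk2 was the least abundant in all 3 lines with either length.

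**Figure D4:**
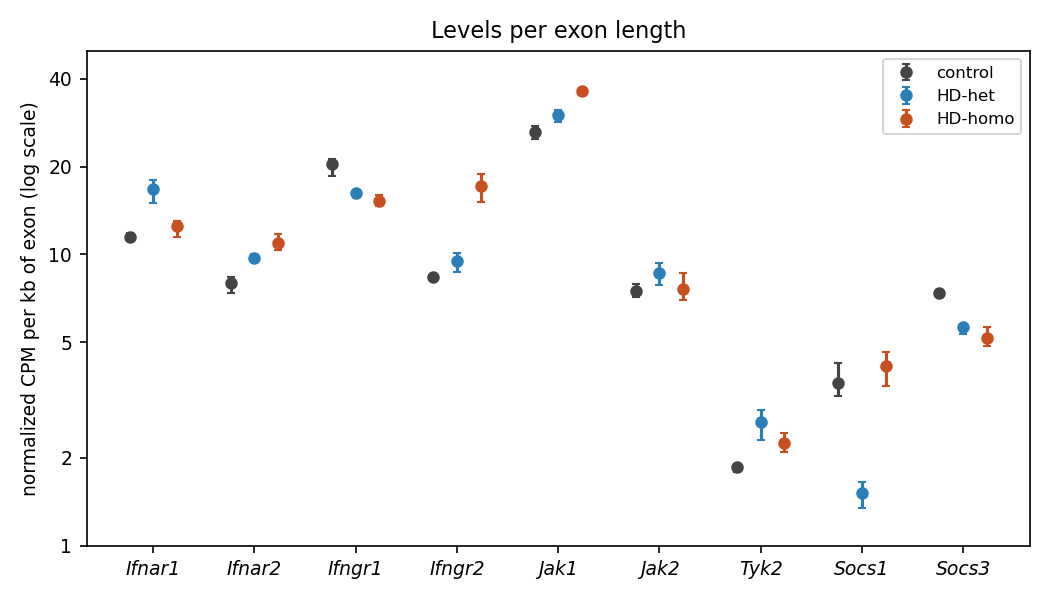
Normalized CPM per kb of exon (vertical axis, log scale) of the 9 genes in the 3 lines, where points are means and bars span the lowest and highest of 3 libraries. Jak1 is highest in every line, Tyk2 is lowest in control and HD-homo cells, and Socs1 is lowest in HD-het cells.

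The genes whose pattern over the 9 libraries was most like each of the 9 were taken from 4424 or 4425 tested genes with at least 1 CPM and a log2 range of at least 1. The measure was Pearson's r of log2 CPM, which mostly reflects the means of 3 lines, and it is given without a test. Ifngr2 was most like Stat2 (r = 0.987), a partner of Irf9 in the type I interferon response, and Pdlim4 (0.986). Socs1 was most like Klk8 (0.988) and Parvb (0.984), and Parvb had means of 98.6 CPM in control, 5.24 CPM in HD-het and 122 CPM in HD-homo cells. Ifnar1 was most like Pdk2 (0.995), Tyk2 like Nek8 (0.988), Jak1 like Aff1 (0.992), Socs3 like Kcnmb4 (0.993), Ifnar2 like Dram1 (0.969) and Ifngr1 like Artn (0.967). Jak2 had the weakest closest match, with Rp2 (0.926).

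The ligands had almost no counts. Of 23 listed genes for interferons and for the related cytokines Il10 and Il22, none had enough counts to be tested, and no library held more than 2 counts for any of them, below the floor of 3 counts. Ifnb1 and Ifng, the best known type I and type II interferons, had 0 counts in all 9 libraries, which allows up to 0.101 CPM in the shallowest library. Related receptors changed in 1 case. Ifnlr1, the specific chain of the interferon lambda receptor, had 23 to 34 counts in control and 34 to 70 in HD-homo libraries but 1 count in each HD-het library, below the floor (adjusted p = 8.59e-06 for HD-het versus control cells). Il10rb and Il20rb passed the test in no comparison.

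Of the 7 other genes of the JAK and SOCS families, all tested, 3 rose and 2 fell in HD-homo versus control cells, and the same numbers did so in HD-het versus control cells. Among all tested genes, 29.6% were higher and 28.9% lower in HD-homo, and 33.8% higher and 31.4% lower in HD-het cells, so that these counts do not set the families apart. Socs2, a suppressor of growth hormone signaling, was 2.39-fold higher in HD-homo cells (log2 fold change 1.25, adjusted p = 5.61e-05) and did not pass the test in HD-het cells (-0.21, adjusted p = 0.308). Cish, the family member closest to Socs2, was highest in HD-het cells, 3.58-fold over control cells (log2 fold change 1.84, adjusted p = 1.79e-05). Its rise of 0.58 in HD-homo cells (adjusted p = 0.0475) was lost in 11 of 18 alternative analyses (up to 0.180), among them without any 1 library other than HD-homo replicate 3. Socs5 fell in both HD lines (-0.34 in HD-homo and -0.32 in HD-het cells, adjusted p = 8.31e-04 and 9.91e-04), as Socs3 did. Jak3 rose by 0.50 on the log2 scale in HD-homo cells (adjusted p = 0.0109) and by 0.35 in HD-het cells (adjusted p = 0.0473), and the latter call was lost in 11 of 18 alternative analyses (up to 0.179), among them without control replicate 2 or 3, HD-het replicate 1 or 2 or HD-homo replicate 1 or 2. Without control replicate 2, control replicate 3 or HD-het replicate 2, only 3 of these 7 genes were called in HD-het cells. Of 11 tested phosphatases, PIAS proteins, adaptors and other negative regulators, 7 rose and 2 fell in HD-homo cells (all tested genes, 29.6% and 28.9%), and 3 rose and 3 fell in HD-het cells (all tested genes, 33.8% and 31.4%). Usp18, which holds down the type I receptor by binding Ifnar2, had 0 to 4 counts in control and 275 to 808 counts in HD-homo libraries (adjusted p = 4.62e-06). Its fitted log2 fold change of 7.89 was 9.39 without control replicate 2 and 7.15 without HD-homo replicate 3, so that its size is uncertain. Usp18 had enough counts to test only through the HD-homo libraries, so it could only be called higher there. Cbl, a ubiquitin ligase, had the lowest log2 fold change of the list in HD-homo versus control cells (-0.71, adjusted p = 3.62e-05).

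Downstream of the receptors, 7 of 8 tested STAT and partner genes rose in HD-homo versus control cells and none fell (all tested genes, 29.6% and 28.9%), while 3 rose and 4 fell in HD-het cells (all tested genes, 33.8% and 31.4%). The median log2 fold change was 1.66 and 0.04, beside 0.01 and 0.03 over all tested genes. Irf9, the DNA-binding partner of Stat2 at the ISRE, stood at 4.91 times the control level in HD-homo and 1.76 times in HD-het cells (adjusted p = 7.11e-07 and 0.00209). Stat2 stood at 3.45 and 1.23 times (adjusted p = 1.96e-08 and 0.0164). Stat3, which is activated by gp130 receptors, and Stat5a rose in HD-homo cells (0.63 and 1.54) and fell in HD-het cells (-0.22 and -0.73). Irf1 did likewise (0.43 and -0.80), the same pattern of signs as the fitted values of Socs1. Stat6 rose from 0.376 CPM in control to 104.3 CPM in HD-homo cells (log2 fold change 8.10, adjusted p = 6.05e-12). The call of Stat2 in HD-het cells was lost without control replicate 1 or HD-het replicate 2 (adjusted p of up to 0.0686). That of Stat3 in HD-het cells was lost without control replicate 1 or 2 or HD-het replicate 3 (up to 0.0688), and that of Irf1 in HD-homo cells without control replicate 1 or 2 or HD-homo replicate 1 (up to 0.0606).

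Of 10 tested cytokines and receptors of the interleukin-6 family, which signal through gp130 and Jak1 and are restrained by Socs3, 8 rose and 2 fell in HD-homo versus control cells (all tested genes, 29.6% and 28.9%), and 2 rose and 5 fell in HD-het cells (all tested genes, 33.8% and 31.4%). Lif, a cytokine of this family, had the highest log2 fold change of the 10 in HD-homo cells, and its level went from 18.4 CPM in control to 188 CPM in HD-homo and 81.4 CPM in HD-het cells (log2 fold change 3.36 and 2.14, adjusted p = 2.44e-06 and 6.09e-05). In HD-het cells Il6, named here after its values were seen, had a higher log2 fold change than Lif (3.23, adjusted p = 1.15e-04), with 3 counts in each control library and 28 to 34 counts in the HD-het libraries. Ctf1 had the lowest log2 fold change in HD-homo cells (-2.18, adjusted p = 1.67e-06).

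Of 19 tested interferon-induced genes, 17 rose and 1 fell in HD-homo versus control cells (all tested genes, 29.6% and 28.9%), and 7 rose and 1 fell in HD-het cells (all tested genes, 33.8% and 31.4%), with median log2 fold changes of 5.46 and 1.23, or 4.93 and 1.18 with genes at the floor taken at their bound. Oas1a, a sensor of viral RNA, had 0 to 2 counts in control and 228 to 667 counts in HD-homo libraries (fitted log2 fold change 8.31, or 7.60 without HD-homo replicate 3 and 9.13 without control replicate 2), and it has close copies in the genome that could share its reads. Ifit2 was the gene that fell (log2 fold change -0.46, adjusted p = 0.0475), a call lost in 11 of 18 alternative analyses (up to 0.161), among them without any 1 library other than HD-homo replicate 2. In HD-het cells Irf1 fell. Irf1 is also counted among the STAT and partner genes above, and Usp18 is also counted among the negative regulators. The interferon-induced genes were listed with results of these data known, so their count is no independent evidence. Some of them, such as Oas1a and Usp18, had enough counts to test only through the HD-homo libraries. In control and HD-het libraries Oas1a had at most 2 counts and Usp18 at most 7. Such genes could only be called higher in HD-homo cells. The count and the median that include them were thus partly set by that filter.

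**Figure D5:**
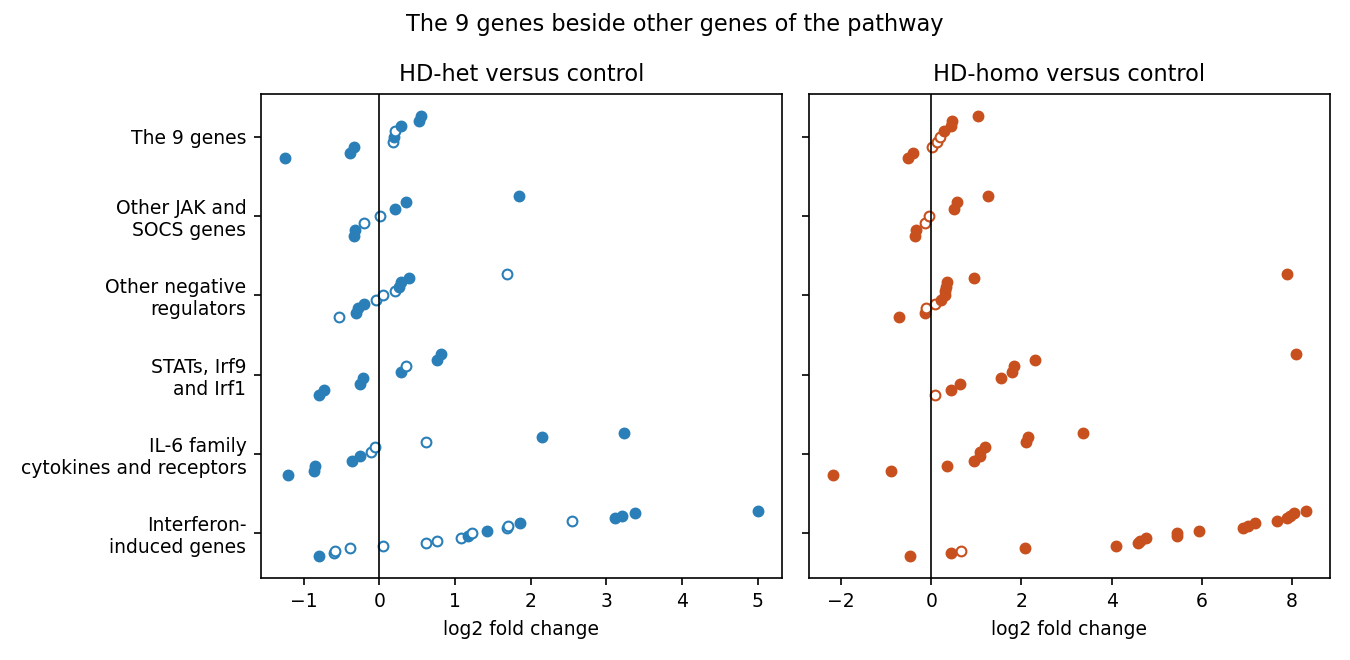
Log2 fold change (horizontal axis, on its own scale in each panel) of the 9 genes and of other tested genes of the pathway, 1 point per gene, in HD-het versus control cells (left) and HD-homo versus control cells (right), where filled points have an adjusted p under 0.05 and fitted values of genes near 0 counts depend on the prior count. Among the 9 genes the value farthest from 0 is -1.25, while most interferon-induced genes lie above 4 in HD-homo cells. Some of the interferon-induced genes had enough counts to test only through the HD-homo libraries.

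Cell type markers moved with the lines, and their part in the results was not tested. In bulk RNA, fewer cells of a type and less RNA per cell cannot be told apart. Of 9 medium spiny neuron markers, 3 had more than 3 counts in every library of control cells, 3 in HD-het and 4 in HD-homo cells, and their summed level was 1.61 to 4.56 CPM over all libraries. The defining genes Drd1 and Drd2 had 0 counts and at most 1 count per library, while Penk had 33 to 46 counts in control, 8 to 22 in HD-het and 68 to 116 in HD-homo libraries, and Adora2a had 4 to 21 counts over all libraries. Of 8 general neuronal markers, Tubb3 and Map2 were present in all lines, Nefm had 81 to 115 counts in control and at most 11 in HD libraries, and Snap25, Syt1 and Rbfox3 had at most 2. The summed level of the 8 neuronal markers was 89.35 to 116.6 CPM over all libraries, far below that of the mesenchymal markers given below. The name of striatal neuronal cells comes from the description of the lines, and few of these markers bear it out. Aif1 and Cd3e, markers of microglia and T cells, had 0 counts. The summed level of 10 microglial and leukocyte markers, mostly Tmem119, was 45.9 to 56.9 CPM in HD-het cells, 14.3 to 17.9 in control and 15.7 to 17.2 in HD-homo cells. All 7 mesenchymal markers were present, and their sum was 19220 to 20740 CPM in HD-het cells, against 10570 to 11350 in control and 10630 to 11340 in HD-homo cells. Members of this list moved in different directions under these sums, with 5 of 7 higher and 2 lower in HD-het than control cells, and 3 higher and 3 lower in HD-homo than control cells. Col1a2 had a mean of 73.4 CPM in control, 3.15 CPM in HD-het and 1494 CPM in HD-homo cells, while Acta2 had 2271, 5290 and 91.9 CPM. Ifnar1 was also highest and Socs1 lowest in HD-het cells. The summed level of 5 astrocyte markers was 12.9 to 19.1 CPM in HD-homo, 2.70 to 3.02 in control and 1.08 to 1.56 in HD-het cells, and Ifngr2 was highest in HD-homo cells too. That sum was mostly Slc1a3 in HD-homo cells (mean of 14.6 CPM), where Aqp4 had 0 counts and Gfap 1 to 2, fewer than the 4 to 6 counts of Gfap in control libraries. Htt itself fell with the number of alleles with 111 repeats, from 93.0 to 103.7 CPM in control to 61.1 to 64.0 in HD-het and 19.2 to 21.7 in HD-homo cells, a count that does not read the repeat length.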

How the data were processed

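Poly(A) RNA of 9 libraries, 3 per cell line, was sequenced by the authors after a strand-keeping library preparation. The deposited values are raw counts per gene symbol. The submitters' processing notes name cutadapt, Bowtie 1.1.2, RSEM 1.3.0 and DESeq2 and the builds GRCm38.p5 and mm10, with no order. If RSEM made the counts, they are rounded estimates, in which reads that match several genes are shared out. Of 36410 rows, 26 have a date for a symbol and 2 repeat a name.

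The analysis used edgeR 4.0.16 in R 4.3.3 (filterByExpr with minimum count 10, TMM, quasi-likelihood fit with 1 mean per line on all libraries, Benjamini-Hochberg adjustment). The paper describes no test for these counts, while the submitters' notes name DESeq2, which was run here as an alternative. Alternatives were DESeq2 1.42.0, other scaling, filters, fits and thresholds, thinning to the smallest library, and leaving out each library. The procedure was tried on simulated counts in which 200 of 12734 genes were changed. It called 174 of the changed and 14 of the unchanged genes. This missed the pass mark first set, which was then altered. The simulation gave all genes 1 dispersion and changed far fewer genes than differed here, so it cannot tell how the procedure did on these data. Positions and exon lengths come from GENCODE M21 (GRCm38), matched for 97.0% of tested genes, and start regions from RefSeq.

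The 9 genes and all lists were chosen with earlier results of these data known. The text names all 9, tested genes of the related receptor, JAK, SOCS and STAT lists (except an item not reported here), the extremes in HD-homo cells of the other pathway lists with Usp18 and Irf9, markers, and the closest matches by correlation. Library totals of 29507665 to 41197931 counts put the floor of 3 counts at 0.0710 to 0.101 CPM. Floors cover counting error only.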

Additional observations from a re-analysis of the deposited data

Results flagged for a closer look

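The differences from control cells were not the same in HD-het and HD-homo cells for 5 of the 9 genes, by the direct comparison of the HD lines with edgeR's quasi-likelihood test. In the same comparison 36.0% of all tested genes were higher and 35.6% lower, so that 5 of 9 does not set these genes apart. The log2 fold change of HD-homo over HD-het cells was 1.44 for Socs1, 0.86 for Ifngr2, 0.27 for Jak1, -0.43 for Ifnar1 and -0.24 for Tyk2. For Socs1 the fitted differences from control cells had opposite signs, -1.25 in HD-het and 0.19 in HD-homo cells, of which only the former passed the test. The value for Tyk2 was lost in most alternative analyses.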

How the results depend on the processing

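The number of changed genes among the 9 stayed within 1.5 times its value under all alternatives, and so did the number among all tested genes. Leaving out each library gave 5 to 6 changed genes of the 9 in HD-homo versus control, 6 to 9 in HD-het versus control and 4 to 6 in HD-homo versus HD-het cells. The difference in the log2 ratio of Jak1 to Jak2 between HD-het and control cells, -0.00415, had no stable sign and ranged from -0.0472 to 0.0617 when a library was left out.

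All fold changes that reversed had an adjusted p of at least 0.451 where they did. When a library was left out, Jak2 in HD-homo versus control cells ranged from -0.0782 to 0.0807, Il20rb from -0.129 to 0.0363 and Socs6 from -0.0980 to 0.0201. In HD-het versus control cells, Socs7 ranged from -0.0138 to 0.0437, Ctf1 from -0.121 to 0.0250, Oas1a from -1.13 to 0.231 and Ifit2 from -0.00103 to 0.104. In HD-homo versus HD-het cells, Il10rb ranged from -0.0689 to 0.0523 and Socs5 from -0.0597 to 0.0158. With library totals only, Socs7 was -1.44e-04 in HD-het versus control cells, and Il10rb was 0.00658 and Socs5 0.0106 in HD-homo versus HD-het cells. After thinning, Il20rb was 0.00810 in HD-homo versus control cells. The cause was not tested. With at least 10 counts in every library, 2 interferon-induced genes were called in HD-homo versus control and 2 in HD-het versus control cells, since that filter leaves few of them to test. Ifnlr1 passed the test in HD-homo versus control cells only without control replicate 3 (adjusted p = 0.0403).

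The main fit did not pair the libraries by replicate number. Same-numbered deviations from the line means correlated weakly, and whether same-numbered libraries were handled together was not tested. The correlations were 0.0332, 0.0219 and 0.00893 (HD-homo and control), 0.0489, 0.145 and 0.133 (HD-het and control) and -0.00532, 0.133 and 0.115 (HD-homo and HD-het). With the replicate number as a block, 6, 9 and 6 of the 9 genes were called in place of 6, 7 and 5, with Ifngr2 and Jak2 added in HD-het versus control cells and Jak2 in HD-homo versus HD-het cells. Each HD-homo and HD-het library correlated best with the control library of its own number, while HD-homo replicate 1 did not do so with HD-het replicate 1. Depth limited the ligands, for which fewer than 3 counts cannot tell absence from a low level.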
